A study of Rattus norvegicus with 12 samples.

Results

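Growth hormone signalling and its urinary protein output were followed through 10 genes: the receptor gene Ghr, the transcription factor genes Stat5a and Stat5b, the feedback inhibitors Socs2 and Cish, the repressor Bcl6, the circulating growth factor genes Igf1 and Igfals, and the major urinary protein genes Mup4 and Mup5. Members were found by gene symbol in both tables, and all 10 symbols were present in at least one. The liver table held 11 rows for them among 18703, because Mup4 has 2 identifiers, and the jejunal table held 9 rows among 21568, with none for Mup4. The genes were chosen by their known place in the pathway together with earlier results of these libraries, in which liver Mup4 and Mup5 were low with antibiotics. The values of Mup4 and Mup5 are therefore a description and carry no test.

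Wistar Han rats received either saline, a group that the labels call wild type, or antibiotics, gavaged over 2 weeks at 5 mL/kg. The antibiotic solution contained vancomycin (10 g/L), amphotericin B (0.2 g/L, against fungi) and 20 g/L of each of metronidazole, neomycin and ampicillin. Poly(A) RNA of jejunum and liver was sequenced in 3 libraries for each of the 4 groups: saline jejunum, antibiotics jejunum, saline liver and antibiotics liver. Both arms were the same strain and carried no transgene in the labels, which give neither age nor sex and do not say whether a replicate number stands for 1 rat, so the p-values measure the spread between libraries only.

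Growth hormone from the pituitary binds its receptor on hepatocytes and activates the kinase JAK2, which phosphorylates STAT5. STAT5 then enters the nucleus and turns on Igf1, Igfals and the inhibitors Socs2 and Cish, which damp the receptor's signal. In rats the hormone reaches the liver in separate pulses in males and more evenly in females, and this pattern sets the level of many liver genes, among them the alpha-2u globulins that the Mup genes encode, lipocalins of male rat liver that are secreted, filtered by the kidney and carry odorants in urine.

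STAT5 binds the palindrome TTCNNNGAA, so the promoters of the members were searched for it. RefSeq gives a window of 250 bases before to 50 bases after the transcription start on the GRCr8 assembly for 9 of the 10 members, all but Socs2. Only the Cish window held the motif, in 4 places that did not overlap, starting 241, 230, 136 and 119 bases before the transcription start. The other 8 windows held none, and of all 33469 promoter windows of this length 8.87% held at least one match, both strands being covered because the motif reads the same on each. The Cish window is shown because it is the densest in the motif among the members, with each match in capitals (chr8:116850719-116851018, plus strand, GRCr8).
Cish: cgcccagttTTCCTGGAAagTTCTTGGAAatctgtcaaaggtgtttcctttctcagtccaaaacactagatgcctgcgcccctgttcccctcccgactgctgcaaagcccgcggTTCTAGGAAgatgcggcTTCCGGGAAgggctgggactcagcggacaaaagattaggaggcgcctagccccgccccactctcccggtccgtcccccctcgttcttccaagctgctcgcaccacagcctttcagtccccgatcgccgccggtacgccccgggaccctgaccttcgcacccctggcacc

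Mup4 and Mup5 lie in a cluster of near-identical genes, and the likeness of their promoters was measured. Their promoter windows (Mup4 chr5:79759447-79759746 and Mup5 chr5:79999646-79999945, both minus strand, GRCr8) were identical in 288 of 301 alignment columns, or 95.7%. For comparison, the windows of Stat5a and Stat5b were identical in 50.6% of theirs. Most bases of a window lie before the transcription start and transcripts were not compared, so these values do not show how reads were shared. Both Mup windows are shown with the 12 bases of each that differ from the other, or have no partner in it, in capitals.
Mup4: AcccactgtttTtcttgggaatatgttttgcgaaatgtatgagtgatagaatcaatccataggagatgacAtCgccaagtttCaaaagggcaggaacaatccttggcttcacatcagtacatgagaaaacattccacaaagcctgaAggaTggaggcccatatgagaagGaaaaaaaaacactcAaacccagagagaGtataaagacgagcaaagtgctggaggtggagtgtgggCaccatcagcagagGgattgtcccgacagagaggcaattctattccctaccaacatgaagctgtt
Mup5: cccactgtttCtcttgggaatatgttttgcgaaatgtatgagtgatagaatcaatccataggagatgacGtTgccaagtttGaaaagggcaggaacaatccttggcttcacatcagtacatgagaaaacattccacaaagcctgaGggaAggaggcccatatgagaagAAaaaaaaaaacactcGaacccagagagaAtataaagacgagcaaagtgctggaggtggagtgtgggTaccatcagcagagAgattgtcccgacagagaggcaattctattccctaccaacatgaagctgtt

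Library size and tissue identity came first. Reads recovered per library ranged from 15017775 to 19318616 in liver and from 14592126 to 18322008 in jejunum. Liver libraries expressed 6 of 6 hepatocyte markers, whose summed normalized count ranged from 1156840 to 1444460 with saline and from 730686 to 1426210 with antibiotics. In jejunum 5 of 6 enterocyte markers had a row, all but Sis. They summed to 24043 to 56388 with saline and to 23508 to 31378 with antibiotics. Hepatocyte markers also had 5 of 6 rows in jejunum, so having a row does not tell the tissues apart. Their jejunal sums were 14739 to 26797 with saline and 9732 to 16978 with antibiotics. Reads of mitochondrially encoded genes made up 25.0%, 6.42% and 16.0% of saline liver libraries 1, 2 and 3 and 3.60% to 4.48% of the antibiotics libraries. In jejunum they made up 63.0%, 26.8% and 80.7% of saline libraries 1, 2 and 3 and 64.8%, 51.3% and 38.7% of antibiotics libraries 1, 2 and 3. Outside mitochondrial genes, reads per jejunal library ranged from 3510319 in saline library 3 to 10684813 in saline library 2. Fold changes followed gene length in both tissues: in liver the median log2 fold change was −0.61 for genes under 1000 bases and 0.30 for those over 4000, and in jejunum it was −0.61 and 0.35. Values are normalized counts unless FPKM (counts per length and depth) is named, and each fold change is antibiotics relative to saline on the log2(count + 1) scale, with a call at an adjusted p under 0.05 by limma over all genes of the tissue.

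In liver, Stat5b was the one member outside the Mup genes that passed the test, and it was higher with antibiotics. Of the 8 members outside the Mup genes, 1 was called higher and 0 lower, beside 7.93% of all 16540 genes tested called higher and 4.89% called lower. The antibiotics and saline groups did not overlap for 2 of these 8, Stat5b above and Igf1 below, while over all genes 19.7% had all antibiotics libraries above all saline libraries and 18.1% had all below. Because the members were chosen with results known, these counts are a description.

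**Figure D1:**
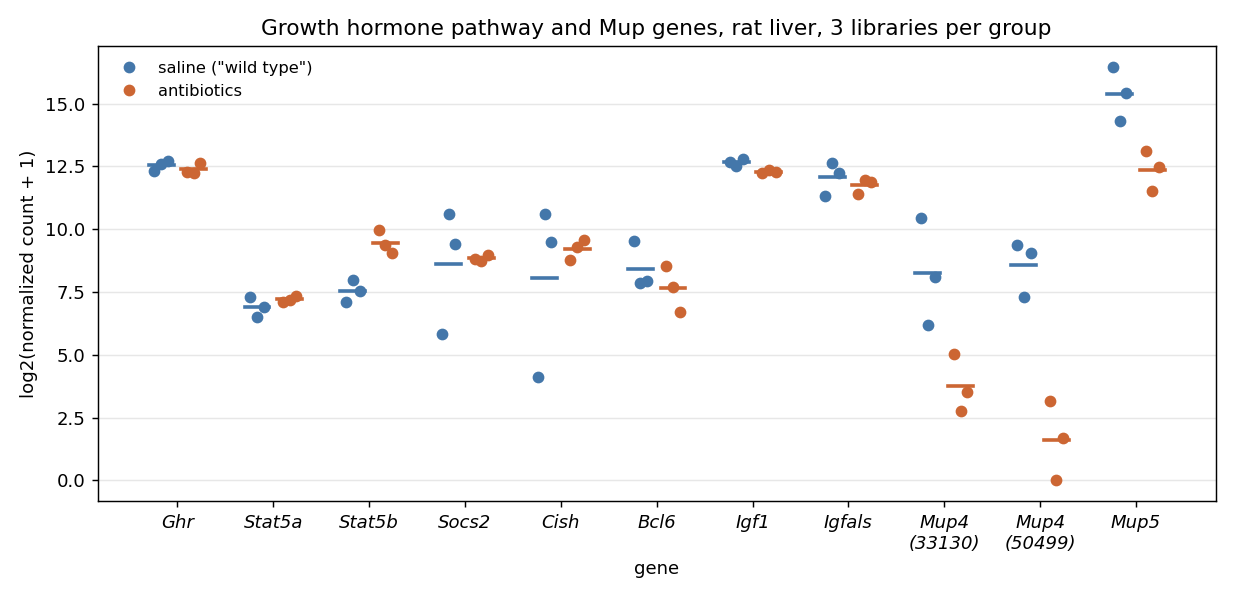
Normalized counts of the members in the 6 liver libraries, on a log2(count + 1) axis, with 1 point per library (blue saline, orange antibiotics) and a bar at the group mean of the log values. Numbers under Mup4 are the last digits of its identifiers. All 3 antibiotics points of Stat5b lie above the saline points, all those of Igf1, Mup4 and Mup5 lie below, and Socs2 and Cish have 1 saline point far under the others.

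Ghr, the growth hormone receptor (ENSRNOG00000015654, chromosome 2, 53150370 to 53413638, minus strand; the genome build of the files is not given in the sources used here), was at 5151, 6254 and 6775 in saline liver and at 5014, 4883 and 6357 with antibiotics. The groups overlapped, and every library lay within a narrow range. The log2 fold change was −0.16 (SE 0.22, limma adjusted p = 0.643). Jak2, which encodes the receptor's kinase, was at 219 ± 8.73 and 229 ± 34.6 (SD, n = 3 each), with a log2 fold change of 0.05 and a limma adjusted p of 0.885.

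Stat5b, the STAT5 gene that carries most of the growth hormone response in mouse liver (ENSRNOG00000019075, chromosome 10, 88686207 to 88754829, minus strand), was at 135, 251 and 184 in saline liver and at 994, 668 and 533 with antibiotics. Every antibiotics library was above every saline library, and the mean was 3.85-fold higher. The log2 fold change was 1.94 (SE 0.28, limma adjusted p = 0.00760, higher in 3 of 3 libraries). Without saline library 3 the fold change was still 1.94 but the adjusted p was 0.0582, and under the other 15 alternatives the adjusted p ranged up to 0.0334. Its neighbour Stat5a, which encodes the closely related other STAT5 (ENSRNOG00000019496, chromosome 10, 88764732 to 88789057, plus strand), was at 157, 89.9 and 119 with saline and at 138, 146 and 161 with antibiotics. These groups overlapped (log2 fold change 0.32, SE 0.25, limma adjusted p = 0.414). Reads from stretches shared by both STAT5 genes may have been assigned to either.

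Per length, the balance of the STAT5 pair differed between the groups. The ratio of Stat5b to Stat5a FPKM was 1.16, 3.78 and 2.09 in saline liver and 9.70, 6.19 and 4.47 with antibiotics, so the groups did not overlap. Their summed FPKM was 5.89, 7.46 and 6.38 with saline against 25.7, 18.2 and 15.3 with antibiotics. In both groups Stat5b was the larger part of the sum in every liver library.

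The feedback inhibitors showed a wide spread among saline livers. Socs2, a cytokine signalling suppressor that restrains growth in mice (ENSRNOG00000008965, chromosome 7, 36495480 to 36499784, minus strand), was at 56.0, 1566 and 676 with saline and at 454, 429.8 and 503 with antibiotics. Cish, an early STAT5 target that binds activated receptors (ENSRNOG00000029543, chromosome 8, 116054465 to 116060723, plus strand), was at 16.6, 1544 and 714 with saline and at 439, 623 and 758 with antibiotics. For both genes saline library 1 was the lowest of all 6 livers and saline library 2 the highest. The saline libraries spanned a 27.9-fold range for Socs2 and a 93.3-fold range for Cish, against 1.17-fold and 1.73-fold among antibiotics libraries. Neither passed the test: the limma adjusted p was 0.922 for Socs2 (log2 fold change 0.24, SE 1.30) and 0.725 for Cish (log2 fold change 1.14, SE 1.88). The sign of these estimates turned without saline library 1, to −1.15 for Socs2 and −0.83 for Cish, with limma adjusted p of 0.0790 and 0.201, and was also negative with edgeR and DESeq2.

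Bcl6, a repressor that competes with STAT5 at shared sites in mouse liver (ENSRNOG00000001843, chromosome 11, 80255790 to 80279075, plus strand), was at 732, 229.8 and 243 in saline liver and at 369, 207 and 103 with antibiotics. Saline library 1 was the highest of the 6, opposite to its place for Socs2 and Cish. The groups overlapped (log2 fold change −0.79, SE 0.60, limma adjusted p = 0.415).

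Of the pathway's circulating products, Igf1 encodes insulin-like growth factor 1, the main hormone that liver makes in response to growth hormone (ENSRNOG00000004517, chromosome 7, 28412198 to 28486609, plus strand). Its values were 6604, 5785 and 7116 with saline and 4877, 5181 and 5028 with antibiotics. All antibiotics libraries were below all saline libraries, and the saline mean was 1.29-fold that of antibiotics. The difference did not pass the test (log2 fold change −0.37, SE 0.20, limma adjusted p = 0.235). Igfals, which encodes the acid-labile subunit that holds IGF1 in the circulation (ENSRNOG00000015061, chromosome 10, 14240219 to 14243597, plus strand), was at 2527, 6410.4 and 4817 with saline and at 2738, 3991 and 3735 with antibiotics. Saline library 1 was again the lowest and the groups overlapped (log2 fold change −0.31, SE 0.33, limma adjusted p = 0.552).

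The urinary protein genes were the members with the widest separation in liver. Mup5 (ENSRNOG00000050595, chromosome 5, 77405142 to 77903113, minus strand) was at 90961, 20212 and 43712 with saline and at 8880.2, 2939 and 5724 with antibiotics. Mup4 had 2 rows: ENSRNOG00000033130 (chromosome 5, 77404914 to 77408363) was at 1401, 72.5 and 273 against 31.9, 5.86 and 10.5, and ENSRNOG00000050499 (chromosome 5, 77313357 to 77433854) was at 671, 155 and 536 against 7.97, 0 and 2.25. In each of the 3 rows every antibiotics library was below every saline library, and saline library 1 was the highest of the 6. The log2 fold changes were −3.02 (SE 0.60) for Mup5 and −4.47 (SE 1.16) and −6.96 (SE 0.87) for the Mup4 rows. The last rests on 8, 0 and 3 reads in the antibiotics libraries, where a count of 0 allows up to 3 reads. The annotated span of Mup5 covers or crosses both Mup4 rows, so the split of reads among the 3 rows is uncertain. As these genes are short, the same values after a correction for gene length were −2.77 for Mup5 and −4.00 and −6.73 for Mup4.

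Summing over the family lessens the uncertainty about single copies. In liver 11 genes are annotated as urinary proteins or alpha-2u globulins, 6 in the cluster on chromosome 5 and 5 on chromosome 8, which include Rup2 and encode a different protein family. Together they took 2.08%, 1.20% and 1.63% of reads in saline libraries and 0.533%, 0.613% and 0.535% with antibiotics, or 1.63% ± 0.44 against 0.560% ± 0.046 (SD, n = 3). The difference was larger on chromosome 5 than on chromosome 8: the mean summed count was 8.26-fold higher with saline for the former and 2.80-fold for the latter. Mup5 made up most of the chromosome 5 sum (mean 51628 of 69299 with saline, 5848 of 8392 with antibiotics). Its low values were known when the members were chosen, so the contrast of the chromosomes is a description only. Among the chromosome 5 genes other than the members, LOC259244, an alpha-2u globulin gene, was at 15950, 12138 and 21011 with saline and at 2593, 1522 and 3416 with antibiotics. On chromosome 8, Rup2 was at 129786, 72982 and 104495 with saline and at 40097, 41977 and 32925 with antibiotics. LOC100360095, another gene on chromosome 8, was at 14657, 7975 and 17045 with saline and at 594, 586 and 1009 with antibiotics, a log2 fold change of −4.15 (SE 0.32) against −1.39 (SE 0.28) for Rup2 and −2.75 (SE 0.32) for LOC259244. All 3 were lower in every antibiotics library, genes on chromosome 8 differed widely among themselves, and no test was made of the family. In whole tissue, fewer cells of a type and less RNA per cell cannot be told apart. Ttr, 1 of the 6 hepatocyte markers, was called lower, as were Cd68 and Clec4f among 5 macrophage markers, whose sum ranged from 6018 to 9041 with saline and from 3613 to 4501 with antibiotics. Their part in these results was not tested.

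**Figure D2:**
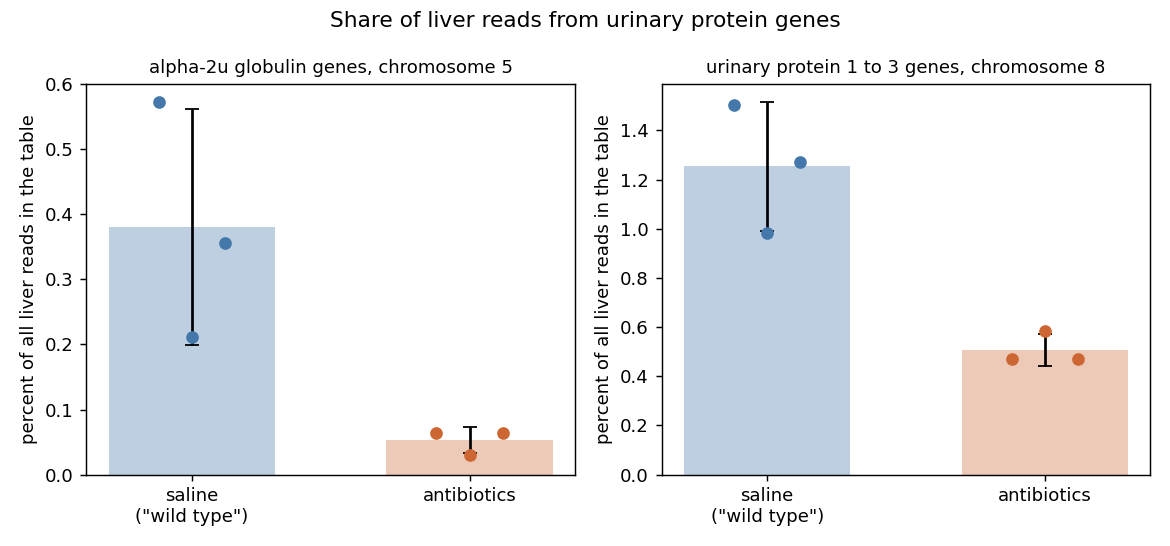
Percent of all liver reads in the table that fall on urinary protein genes, for the 6 genes on chromosome 5 (left) and the 5 on chromosome 8 (right). Points are libraries, bars are means with SD over 3 libraries. The saline points range from 0.212% to 0.572% on the left and from 0.983% to 1.50% on the right, and all antibiotics points lie below them.

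Ordered by FPKM, saline liver had Mup5 highest at 2288 ± 1596 (SD, n = 3), followed by Igf1 at 212 ± 22.0, Igfals at 127 ± 54.1 and Ghr at 121 ± 16.6. Igfals and Ghr did not differ beyond their spread. The Mup4 rows, Socs2, Cish and Bcl6 followed, from 41.9 down to 7.44, each with an SD that was large against its mean and so in no firm order, and Stat5b at 4.46 ± 1.37 and Stat5a at 2.12 ± 0.58 came last. With antibiotics Mup5 at 259 ± 131 was within its spread of Igf1 at 164 ± 5.27. Stat5b at 17.2 ± 5.54 then stood beside Socs2 at 20.4 ± 1.63 and Cish at 12.0 ± 3.17, and the Mup4 rows at 1.16 and 0.145 were the lowest.

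Genes with the liver pattern most like that of a member were sought among 7331 genes with a mean of at least 100. For Mup5 these were Mrpl48, a mitochondrial ribosomal protein gene (Pearson r = 0.998 over 6 liver libraries), Sh2b1, an adaptor of JAK2, and Ggps1, an enzyme of isoprenoid synthesis. For Igf1 they were Mrps35, another mitochondrial ribosomal protein gene (Pearson r = 0.998 over 6 libraries), Tex9 and Crcp. For Ghr the nearest was Kmo, an enzyme of tryptophan breakdown (Pearson r = 0.982 over 6 libraries), and Esrrg was also among the nearest. The libraries include both treatments, and the share of genes compared that had r above 0.9 was 8.96% with Mup5, 8.12% with Igf1 and 0.409% with Ghr.

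Beyond the members, 6 lists of genes around the pathway, named for known roles with earlier results of these libraries known, held 103 symbols. Of 89 tested in liver, 15 were called higher and 5 lower, beside 7.93% higher and 4.89% lower over all liver genes, and their median log2 fold change was 0.43 beside −0.01. These overall shares are also the background of the uncorrected counts for each list below. After the correction for gene length 9 were higher and 4 lower, with a median of 0.33. Over all 16540 liver genes 1100 were then higher and 507 lower, with a median of 0.03, the background of corrected counts below. Without saline library 3 only 1 was called, in a liver fit in which 74 genes passed in all. The count was 33 without saline library 2 (4416 liver genes in all) and 13 without saline library 1 (918 in all). It was 9 or 10 without any one antibiotics library (379 to 528 in all). All called genes are named below, those beyond the 3 with the smallest p of each list after their values were seen.

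Among 30 receptor signalling genes 5 were higher in liver and 0 lower, with a median of 0.44. Stat3, the STAT of interleukin 6 signalling, was at 1118, 1711 and 1373 with saline and at 5244, 3967 and 3621 with antibiotics (log2 fold change 1.61, SE 0.23, limma adjusted p = 0.00697). Stat3 lies next to Stat5a on chromosome 10 (88790408 to 88842233, minus strand), and all 3 of its antibiotics values were above its saline values, as for Stat5b. Sirpa, a membrane protein that recruits phosphatases to growth factor receptors, rose by a log2 of 1.59 (SE 0.20, limma adjusted p = 0.00522). Ptpn11, the phosphatase SHP2 that growth hormone receptor binds (log2 1.04), Shc1, an adaptor to the RAS pathway (0.94), and Socs3, a suppressor induced by cytokines (1.58), were the others called. After the length correction 2 of the 30 were called higher, beside 1100 of all 16540 liver genes. Ptpn11 passed in 10 of 16 alternatives.

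In the IGF system 3 of 15 tested genes were called in liver, all higher, with a median of 0.68. Insr, the insulin receptor, was at 354, 505 and 306 with saline and at 1170, 993 and 1362 with antibiotics (log2 fold change 1.62, SE 0.23, limma adjusted p = 0.00643). Igf2r, the receptor that clears IGF2, rose by a log2 of 1.80 (SE 0.27), and Ide, a protease of insulin, by 0.79. Igf2r passed in 15 of 16 alternatives and Ide in 9. Igfbp3, the carrier that joins IGF1 and the acid-labile subunit, was at 884, 745 and 1158 with saline and at 281, 664 and 713 with antibiotics. These groups did not overlap, and the gene was not called (log2 fold change −0.84, SE 0.35, limma adjusted p = 0.144). Groups were also apart for the binding protein genes Igfbp4, which was higher, and Igfbp7, which was lower. Neither was called (0.97, limma adjusted p = 0.05001, and −0.73, limma adjusted p = 0.0736). In this list 7 of 15 genes had groups apart, beside 19.7% higher and 18.1% lower over all liver genes.

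Of 18 factors that act beside STAT5 in liver, 5 were higher and 1 lower, with a median of 0.72, and after the length correction 2 were higher and 1 lower, with a median of 0.41. Rxra, a nuclear receptor partner, was at 241, 1592 and 389 with saline and at 3777, 3449 and 5101 with antibiotics (log2 fold change 2.93, SE 0.68, limma adjusted p = 0.0438). Ncor1, a corepressor (log2 0.89), Zhx2, a repressor of several liver genes in mice (1.60), Onecut2, a hepatocyte factor (1.73), and Cux1 (1.54) were also higher, and Foxa2, a factor that opens liver chromatin, was lower (−1.01). Among 11 other growth hormone-responsive genes, Pim1, a kinase gene that STAT5 turns on, was higher (1.66), and Serpina3c, a protease inhibitor gene, was lower (−1.10). Pim1 passed in 14 of 16 alternatives and Serpina3c in 10.

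Sex-dependent liver genes, which the pulse pattern of growth hormone sets in rats, were taken as a male-biased and a female-biased list. Of 7 male-biased genes tested, 2 were lower and 0 higher, beside 4.89% lower and 7.93% higher over all liver genes. Their median log2 fold change was −1.20. Cyp2a2, Cyp3a2 and Obp3, also on the male-biased list, had no row in liver. Cyp2c11, the main male cytochrome P450 of rat liver, was at 12467, 5415 and 6716 with saline and at 783, 336 and 1236 with antibiotics (log2 fold change −3.48, SE 0.51, limma adjusted p = 0.0116). Sult1e1, the estrogen sulfotransferase, fell by 1.58 on the log2 scale (SE 0.25, limma adjusted p = 0.00842). Of 10 female-biased genes, 1 was higher and 1 lower, close to the shares over all liver genes, with a median of 0.44. Cyp2c12, the female steroid disulfate hydroxylase, was at 508, 521 and 296 with saline and at 1155, 3835 and 2573 with antibiotics (log2 fold change 2.39, SE 0.44, limma adjusted p = 0.0188). Hsd17b2, which inactivates estradiol, fell by 1.83 on the log2 scale (SE 0.33, limma adjusted p = 0.0129). Counts of Cyp2c11 and Cyp2c12 are uncertain, as reads of closely related genes can be exchanged, and their sequences were not compared here. The Y-linked genes Kdm5d and Eif2s3y had at least 101 and 255 reads, respectively, in each of the 12 libraries.

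**Figure D3:**
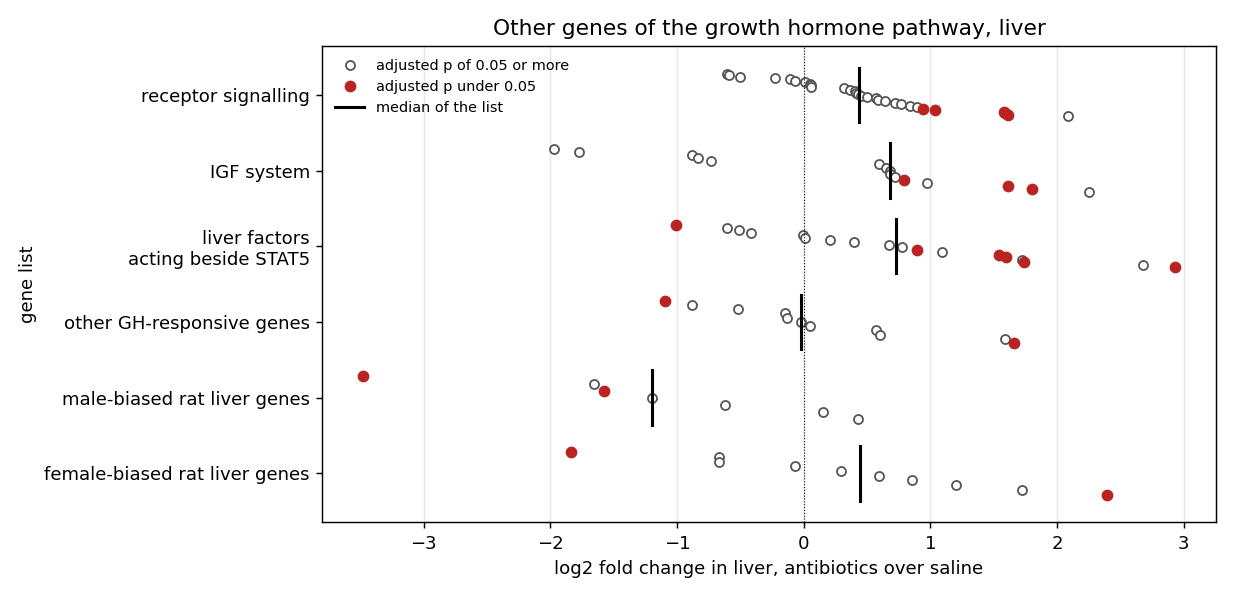
Log2 fold changes in liver of the tested genes of 6 lists around growth hormone signalling, with 1 point per gene, red where the limma adjusted p was under 0.05, and a black line at each list's median. Medians run from −1.20 for male-biased genes to 0.72 for factors acting beside STAT5.

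In jejunum no member outside the Mup genes passed the test, although Stat5b and Igf1 were called in the authors' deposited table. Of the 7 tested, 0 were called higher and 0 lower, beside 0.761% of all 19450 genes tested called higher and 0.519% lower. With so few genes called in this tissue, the lack of a call is not a result about the members. Stat5b alone had groups that did not overlap, with antibiotics higher, beside 16.6% of all genes with antibiotics higher and 11.3% with antibiotics lower.

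**Figure D4:**
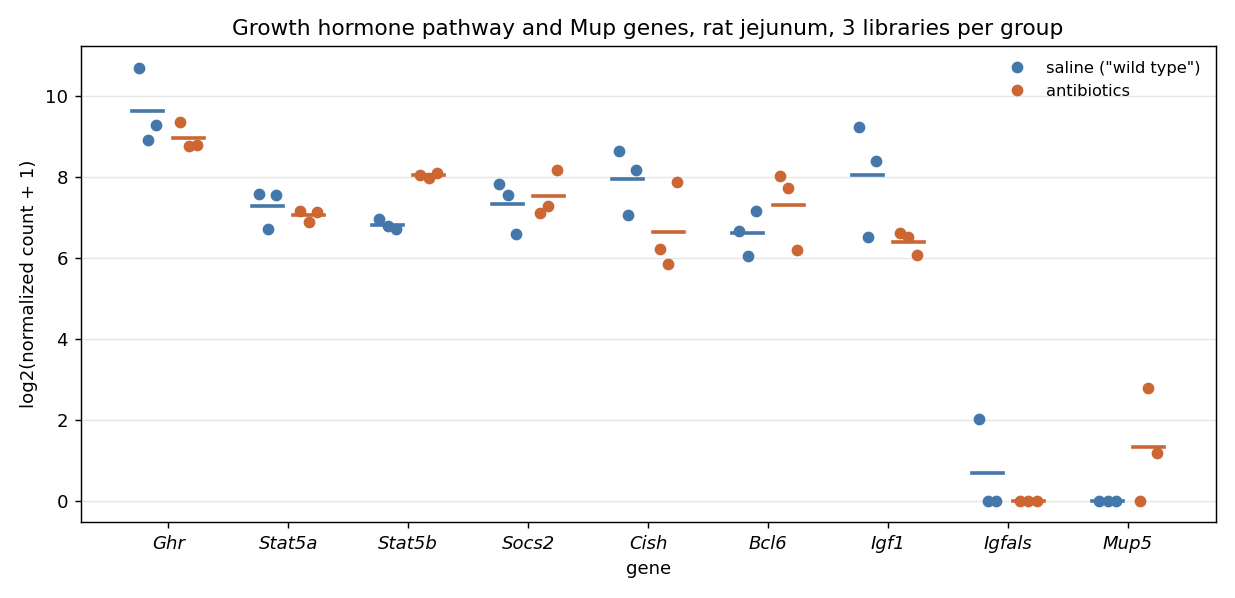
Normalized counts of the members in the 6 jejunal libraries, on a log2(count + 1) axis, with 1 point per library and a bar at the group mean of the log values. The antibiotics points of Stat5b lie together above the saline points, the saline points of Igf1 and Ghr are spread, and Igfals and Mup5 are at or near 0.

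Stat5b was at 124, 109 and 103 in saline jejunum and at 262, 252 and 273 with antibiotics. The values were tight within each group and the mean with antibiotics was 2.34-fold that with saline. The log2 fold change was 1.22 (SE 0.29) with a limma adjusted p of 0.0607. The authors' deposited table gives it an adjusted p of 0.00458, and DESeq2 on recovered reads gave 0.00153. Limma also called it without saline library 1 (adjusted p = 0.0274), whereas the adjusted p was 0.256, 0.146 and 0.250 without antibiotics library 1, 2 or 3 and 0.366 with scaling by library totals. Stat5a was at 191, 104 and 187 with saline and at 142, 117 and 139.8 with antibiotics, which overlapped (log2 fold change −0.22, SE 0.35, limma adjusted p = 0.747), and its sign turned with scaling by library totals (0.28). The ratio of Stat5b to Stat5a FPKM was 0.879, 1.42 and 0.745 with saline and 2.49, 2.91 and 2.63 with antibiotics, again without overlap. Smooth muscle markers, 5 of 5 listed, summed to 28420 to 78198 with saline and to 115763 to 123213 with antibiotics, and 1 of them, Lmod1, was called higher. Fibroblast markers summed to 4064 to 13006 and 13647 to 15878. Their part in the Stat5b difference was not tested.

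Igf1 in jejunum was at 604, 91.1 and 333 with saline and at 97.2, 90.6 and 66.8 with antibiotics. Saline libraries 1 and 3 were above all others, while saline library 2 was level with the antibiotics libraries. The log2 fold change was −1.64 (SE 0.58, limma adjusted p = 0.141). It was called without saline library 2 (−2.41, limma adjusted p = 0.0347) and in the authors' deposited table (adjusted p = 0.00856), and DESeq2 on recovered reads gave 0.0112. Without saline library 1 the fold change was −1.05 (limma adjusted p = 0.239), and with scaling by library totals −1.15 (limma adjusted p = 0.653). Ghr was at 1669, 481 and 628 with saline and at 659, 437 and 441 with antibiotics, with saline library 1 apart from the rest (log2 fold change −0.66, SE 0.42, limma adjusted p = 0.382). Adipocyte markers, 5 of 5 listed and none called, summed to 21326, 3256 and 18419 in saline libraries 1, 2 and 3 and to 3868, 2011 and 1367 with antibiotics. Saline library 2 was the lowest saline library for Igf1, Ghr and these markers. It was also the lowest for markers of fibroblasts (13006, 4064 and 7390 in saline libraries 1, 2 and 3), macrophages (509, 170 and 495) and endothelium (1433, 431 and 1267). It was not the lowest for enterocyte, smooth muscle, lymphocyte, hepatocyte, cholangiocyte or pancreatic acinar markers. The part of any cell type in the values of Igf1 and Ghr was not tested.

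The jejunal inhibitors and Bcl6 overlapped between groups. Socs2 was at 225, 188 and 94.6 with saline and at 137, 156 and 289.7 with antibiotics (log2 fold change 0.20, SE 0.42, limma adjusted p = 0.810), and the estimate turned negative without saline library 3 or antibiotics library 3. Cish was at 400.4, 132 and 286 with saline and at 73.4, 56.8 and 236 with antibiotics (−1.30, SE 0.56, limma adjusted p = 0.205). Of its antibiotics libraries, 2 were below every saline library and the other was between them. Bcl6 was at 101, 64.9 and 142 with saline and at 259.9, 213 and 71.8 with antibiotics (0.69, SE 0.51, limma adjusted p = 0.451).

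Igfals and Mup5 were near 0 in jejunum. Igfals had 3 reads in saline library 1 and 0 in the other 5 libraries, and Mup5 had 7 and 2 reads in antibiotics libraries 2 and 3 and 0 elsewhere. Both lie at or about the floor of 3 reads per library, so no fold is given. Of 80 pathway genes tested in jejunum, 0 were higher and 2 lower, beside 0.761% and 0.519% of all jejunal genes, with a median log2 fold change of −0.06 beside 0.06. Those called were Cebpa (2738 ± 204 to 541 ± 138, SD, n = 3 each, log2 fold change −2.37, limma adjusted p = 0.0108) and Cebpb (1230.0 ± 281 to 482 ± 51.9, −1.33, limma adjusted p = 0.0406), which encode transcription factors of liver, fat and gut. The count of pathway calls was 0 without any one antibiotics library, where only 1 to 3 jejunal genes passed in all. It was 1 without saline library 3 (62 jejunal genes in all) and 9 without saline library 1 (1902 in all). Ptpn11, called in liver, was at 893 ± 203 and 1955 ± 327 in jejunum, with a limma adjusted p of 0.0618, and Igf1r, the IGF1 receptor, at 36.4 ± 35.6 and 144 ± 26.3 with 0.0887.

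Whether the response differed between the tissues was tested across all 12 libraries with edgeR. The fit took jejunal and liver libraries as independent, and the labels do not say whether both tissues came from the same rats. Same-numbered libraries of the 2 tissues correlated at 0.10, 0.11 and 0.22 with antibiotics and at −0.02, 0.03 and 0.01 with saline. Of 14187 genes, 8 passed, or 0.0564%, and no member outside the Mup genes was among them; with 1 library left out the number passing ranged from 0 to 834, the highest without jejunal saline library 1. Stat5b had a log2 fold change 0.66 larger in liver than in jejunum (SE 0.38, edgeR adjusted p = 0.347). For Igf1 the liver change lay 1.59 above the jejunal one (SE 0.67, edgeR adjusted p = 0.215), and without jejunal saline library 2 this difference was 2.09 and passed (edgeR adjusted p = 0.0402), while without jejunal saline library 1 it was 0.83 (edgeR adjusted p = 0.368). It passed in 1 of 16 alternatives. Bcl6 had the opposite sign in the limma fits of the tissues, −0.79 in liver and 0.69 in jejunum. Its difference in the edgeR fit, a separate model on recovered reads, was −1.73 (SE 0.81, edgeR adjusted p = 0.256). Igf1 stood at an FPKM of 212 ± 22.0 in saline liver and 13.4 ± 10.1 in saline jejunum, and Ghr at 121 ± 16.6 and 22.2 ± 15.6 (SD, n = 3), each set across tables normalized separately.

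**Figure D5:**
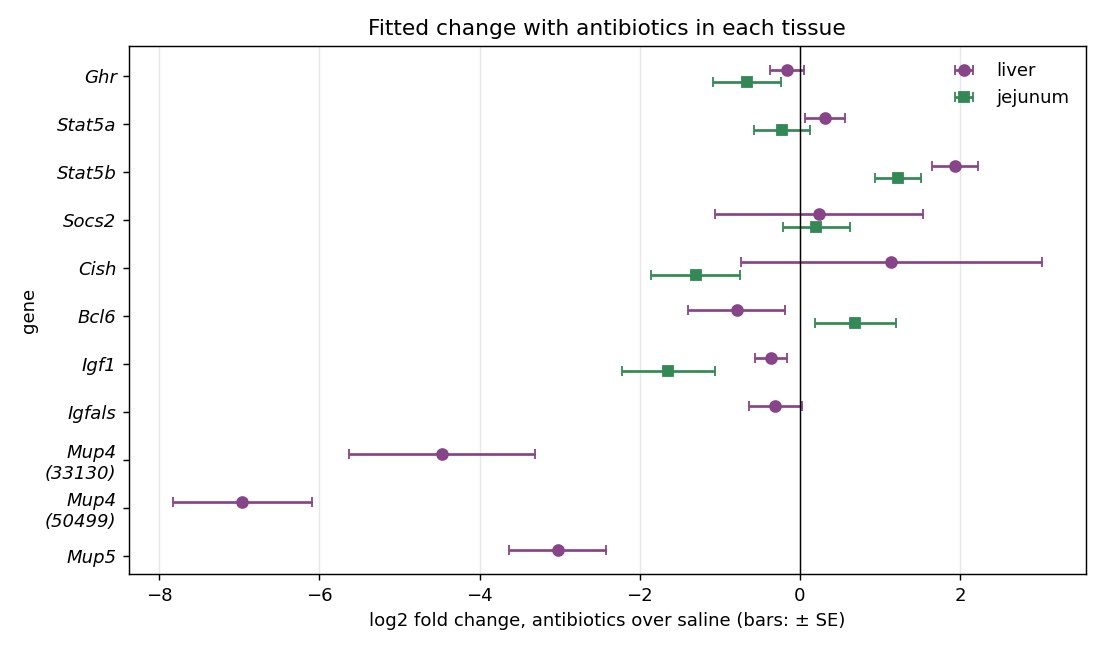
Log2 fold change of each member with antibiotics, with its standard error from limma, in liver (circles) and jejunum (squares); jejunal Igfals and Mup5 are left out for lack of reads. Stat5b lies to the right of 0 in both tissues, at 1.94 and 1.22, and the Mup genes in liver lie furthest to the left.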

How the data were processed

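Poly(A) RNA was sequenced as paired reads of 150 bases in 12 libraries, per the labels' protocols. Tools listed in the submitters' processing notes are DESeq2 1.20.0, HISAT2 2.0.5 and CASAVA 1.4. The genome build, the counting tool and the use of strand are not given in the sources used here, so reads of overlapping or antisense genes may be mixed. The count columns the authors deposited hold a normalized signal, 1 table per tissue: every value (100%) was a whole number of reads, within 0.01 reads, divided by 1 factor per library, so reads were recovered. The deposited FPKM values are these counts per length and depth, and the deposited log2 fold changes and p-values, adjusted ones included, come, per the file headers, from the authors' comparison.

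All computing used R 4.3.3. As the deposited values are not raw counts, limma 3.58.1 (trend, robust) was run on log2(normalized count + 1) within each tissue, for genes with a mean of at least 1, with Benjamini-Hochberg adjustment over all genes. For the tissue difference edgeR 4.0.16 (quasi-likelihood, TMM) was run on recovered reads of annotated genes present in both tables. Both tests were tested on simulated data. The count depth per library is given with the results, and intervals or floors cover counting error only. Precision is limited by the 3 libraries of a group and, for Igfals and Mup5 in jejunum, by depth. No libraries were duplicates. The members, gene lists and alternatives were chosen with earlier results of these data known. Named are all members, up to 3 genes with the smallest p of each list and tissue, and for Igf1, Ghr and Mup5 the 3 genes most correlated in liver, 1 of which is not reported here. Alternatives included DESeq2 1.42.0, pseudocounts of 0.1 and 5, other filters and scalings, a correction for gene length (lowess, span 0.3, fitted at a mean of at least 50), the replicate number as a block and each library left out. Same-numbered libraries of the 2 arms did not deviate together throughout, so the numbers were not taken as pairs.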

Additional observations from a re-analysis of the deposited data

How the results depend on the processing

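With 3 libraries per group, single libraries moved the counts of calls. Over all liver genes 2121 were called, and 74 to 4416 with 1 library left out (lowest without saline library 3, highest without saline library 2). Pathway genes called in liver ranged from 1 to 33, and were 13 after the correction for gene length. In jejunum 249 genes were called, and 1 to 1902 with 1 library left out (1 without antibiotics library 1 or 3, 1902 without saline library 1); the count was 160 with a pseudocount of 0.1, 59 with scaling by library totals, 97 with edgeR, 1868 with DESeq2 and 24 after the length correction. The 2 jejunal pathway calls became 1, 0, 1, 8 and 1 under these settings, and 0 to 9 with a library left out. The 8 calls of the tissue difference became 13 with no filter, 882 with DESeq2, and 0 to 834 with a library left out, 0 without liver saline library 1 or 3 and 834 without jejunal saline library 1.

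With the replicate number as a block, 1779 liver and 1625 jejunal genes were called, 21 and 10 pathway genes, and 16 genes of the tissue difference. Same-numbered libraries correlated at 0.12, −0.15 and −0.19 in liver and at 0.24, 0.28 and 0.09 in jejunum, where each library correlated best with its own number, a hint from the data and not the design. Under the block jejunal Stat5b had a limma adjusted p of 0.0302, and no other member's call changed.

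Among values that were not called, signs turned for liver Socs2 (−0.74 with edgeR, −0.73 with DESeq2, −1.15 to 1.23 with a library left out), liver Cish (−0.33, −0.32, and −0.83 to 2.40), jejunal Socs2 (−0.17 to 0.45) and jejunal Stat5a (0.28 with scaling by totals, which put the median over all genes at 0.51 in jejunum and 0.14 in liver). They also turned for liver Kdm5d (−0.0099 with edgeR, −0.30 after the length correction, −0.17 to 0.23 with a library left out), jejunal Dhrs7 (0.38 with totals, 0.17 after the length correction, −0.51 to 0.084), Eif2s3y (0.35 with totals) and Ddx3y (−0.073 to 0.87), and for the tissue difference of Ghr (−0.14 to 1.00) and Socs2 (−1.52 to 0.093). The causes were not tested. The urinary protein share outside mitochondrial genes was 2.00% and 0.583%. Jejunal Igfals and Mup5 were limited by depth.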
